A study of Mus musculus with 20 samples.

Results

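The genes described here are those of the heterogeneous nuclear ribonucleoproteins (hnRNP) and the serine/arginine-rich (SR) splicing factors, taken by name from a table of gene counts: symbols that begin with Hnrnp or Hnrp, or Srsf followed by a number, with a mean of at least 1 CPM (counts scaled to a common library total) over the libraries. Of 25965 rows, 29 were members, 18 hnRNP genes and 11 SR genes, and 2 further names (Hnrnpa1 and Hnrnpa2b1) were left out by the rule. No row with such a name fell below the CPM threshold, so none lies just outside it, and the members of lowest CPM were Srsf9 at 17.3 and Srsf12 at 22.3. All 29 had enough counts to be tested.

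The libraries came from the frontal cortex of C57BL/6 mice aged 5 months, into which the protein change Q331K of TDP-43, an RNA-binding protein encoded by Tardbp, had been introduced by knock-in. Wild-type mice (+/+, 6 libraries) had 0 such alleles, heterozygous mice (Q331K/+, 6 libraries) had 1 and homozygous mice (Q331K/Q331K, 8 libraries) had 2. Polyadenylated RNA was sequenced from strand-marking libraries, and the tissue held all of its cell types, so a different number of cells of a type and a different amount of RNA per cell cannot be told apart. The labels name separate samples and say nothing more of their origin, so a p-value here reflects how far these samples differ among themselves, which may be technical.

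The hnRNP proteins coat nuclear pre-mRNA as it is made and steer splicing, 3' end formation, export and stability, often by silencing splice sites. SR proteins pair RNA recognition motifs with a domain of arginine-serine repeats, bind exonic enhancers and recruit the spliceosome to weak splice sites. Many genes of both families limit their own level by splicing in an exon that exposes the transcript to nonsense-mediated decay. TDP-43 is itself an hnRNP-like protein that regulates its own transcript, and it binds a number of other hnRNP proteins.

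The libraries held 61282647 to 111440766 counts. Tardbp, the edited gene, had 210.0, 218.3 and 226.6 CPM as the lowest, median and highest wild-type value and 233.8, 243.1 and 263.6 CPM in homozygotes, which did not overlap. It rose by 0.17 ± 0.03 (log2, SE) in homozygotes (edgeR quasi-likelihood test, Benjamini-Hochberg adjusted p = 0.0037). All 12 cortical neuron markers and all 11 markers of cortical glia and vessels were detected, among them Slc17a7 (glutamatergic neurons) at 1296 to 1493 CPM. The summed neuronal markers were 12403 to 13744 CPM in wild-type, 12297 to 13138 in heterozygous and 11856 to 12808 in homozygous libraries, and the glial and vessel markers 3506 to 4288, 3684 to 4938 and 3060 to 4444 CPM. None of these was called in homozygotes, where 8 of 12 neuronal estimates were negative (Gad1, of inhibitory neurons, -0.10 ± 0.03, edgeR adjusted p = 0.131) and 8 of 11 glial and vessel estimates positive (Aqp4, of astrocytes, 0.22 ± 0.07, edgeR adjusted p = 0.094). Markers of neighbouring tissue varied between libraries, and most of their estimates were positive in homozygotes against wild type. Positive were 11 of 11 tested ependymal estimates (median log2 change 0.53), 8 of 8 olfactory bulb (1.13), 13 of 13 meningeal (0.32) and 8 of 9 choroid plexus (0.46). Of 11 striatal estimates 7 were positive (0.05). Of all genes tested, 50.6% had a positive estimate. The sum over 11 ependymal markers found of 16 listed was 11.1 to 13.4 CPM in wild-type, 11.8 to 22.7 in heterozygous and 11.1 to 32.5 in homozygous libraries. The sum over 10 olfactory bulb markers was 10.7 to 26.7, 10.9 to 16.1 and 11.3 to 95.7 CPM, over 13 meningeal markers 86.5 to 171.0, 119.4 to 160.9 and 131.7 to 203.2 CPM, over 14 neuroblast and progenitor markers 545.7 to 585.0, 541.0 to 574.6 and 541.0 to 599.8 CPM and over 12 choroid plexus markers 4.30 to 8.32, 5.24 to 9.71 and 5.23 to 13.1 CPM. Stmn2, at a mean of 358 CPM, and Tubb2b, at 89.0 CPM, weighed most in the neuroblast sum. Gene by gene, 12 of the 14 neuroblast estimates were positive in homozygotes against wild type and 2 negative (median log2 change 0.27). Rsph1, an axonemal gene of the ependymal list, rose by 0.39 ± 0.10 (log2, SE; edgeR adjusted p = 0.042) and Sox4, a transcription factor gene of the neuroblast list, by 0.35 ± 0.06 (edgeR adjusted p = 0.0033) in homozygotes. The sum over 11 striatal markers found of 12 listed was 290.7 to 357.3 CPM in wild-type, 296.9 to 688.6 in heterozygous and 276.1 to 374.7 in homozygous libraries. Heterozygous library 1 alone gave the 688.6 CPM, and without it no member was called in any comparison and the median member estimate was -0.0038 for heterozygotes against wild type and 0.029 for homozygotes against heterozygotes. Fits with the ependymal, olfactory and meningeal scores, or with the neuroblast score, as covariates called no member. The fit without them called none either, so this cannot show the part of those tissues. The part of these and of the neuronal, glial, choroid plexus and striatal markers in the values below was not tested.

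Of the 9 members with annotated near-identical copies elsewhere in the genome, Hnrnpa3 and Hnrnpf have the most, and a coding stretch of each is printed beside such copies to show how little sequence separates them. The transcripts are those of GENCODE M21 (GRCm38), capitals mark the bases at which a copy differs from the member, and each stretch is 150 bases long. The windows are the coding stretches, within a single ungapped part of the alignment, where the first copy listed differs at the most positions; they were picked after the values had been seen, and earlier window rules were dropped because they gave a window with no differing base or ran across an alignment gap. Hnrnpa3 (coding bases 184 to 333, in 2 exons) lies at chr2:75661577-75661808, plus strand, Gm6793 at chr8:112014742-112014891, minus strand, and Gm5641 at chr3:54481583-54481732, plus strand. Hnrnpf (coding bases 1087 to 1236) lies at chr6:117924843-117924992, plus strand, and Gm6430 at chr1:97025767-97025916, plus strand.
Hnrnpa3: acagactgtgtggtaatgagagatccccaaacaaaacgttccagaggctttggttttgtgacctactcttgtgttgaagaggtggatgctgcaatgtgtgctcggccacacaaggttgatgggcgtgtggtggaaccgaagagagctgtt
Gm6793: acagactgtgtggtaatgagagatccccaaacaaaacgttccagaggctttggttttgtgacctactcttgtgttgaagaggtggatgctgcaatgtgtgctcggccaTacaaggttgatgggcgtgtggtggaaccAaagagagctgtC
Gm5641: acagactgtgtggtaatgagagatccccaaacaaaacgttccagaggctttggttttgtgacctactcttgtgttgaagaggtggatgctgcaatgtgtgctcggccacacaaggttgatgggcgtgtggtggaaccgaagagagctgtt
Hnrnpf: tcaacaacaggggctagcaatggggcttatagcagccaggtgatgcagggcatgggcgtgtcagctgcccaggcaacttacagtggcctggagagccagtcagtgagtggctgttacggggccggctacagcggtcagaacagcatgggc
Gm6430: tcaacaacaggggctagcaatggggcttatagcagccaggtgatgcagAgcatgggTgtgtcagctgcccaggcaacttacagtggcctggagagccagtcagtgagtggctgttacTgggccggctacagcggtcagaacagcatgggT
Over this stretch Gm6793 differs from Hnrnpa3 at 3 bases, Gm5641 at 0 and Gm6430 from Hnrnpf at 4.

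No member passed the test between homozygotes and wild type, where 1.56% of the 16690 genes tested did (edgeR quasi-likelihood test, adjusted p under 0.05). At an unadjusted p under 0.05 there were 6 members of 29, against 16.1% of all genes. The estimates were positive for 19 members and negative for 10, with a median log2 change of 0.026, against 0.0013 over all genes tested. By family, 15 of 18 hnRNP estimates were positive (median 0.04) and 7 of 11 SR estimates were negative (median -0.03). Of all genes tested, 50.6% had a positive estimate. The 95% interval lay within 0.2 of no change on the log2 scale for 26 members, all but Hnrnpa3, Hnrnpf and Srsf10.

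**Figure D1:**
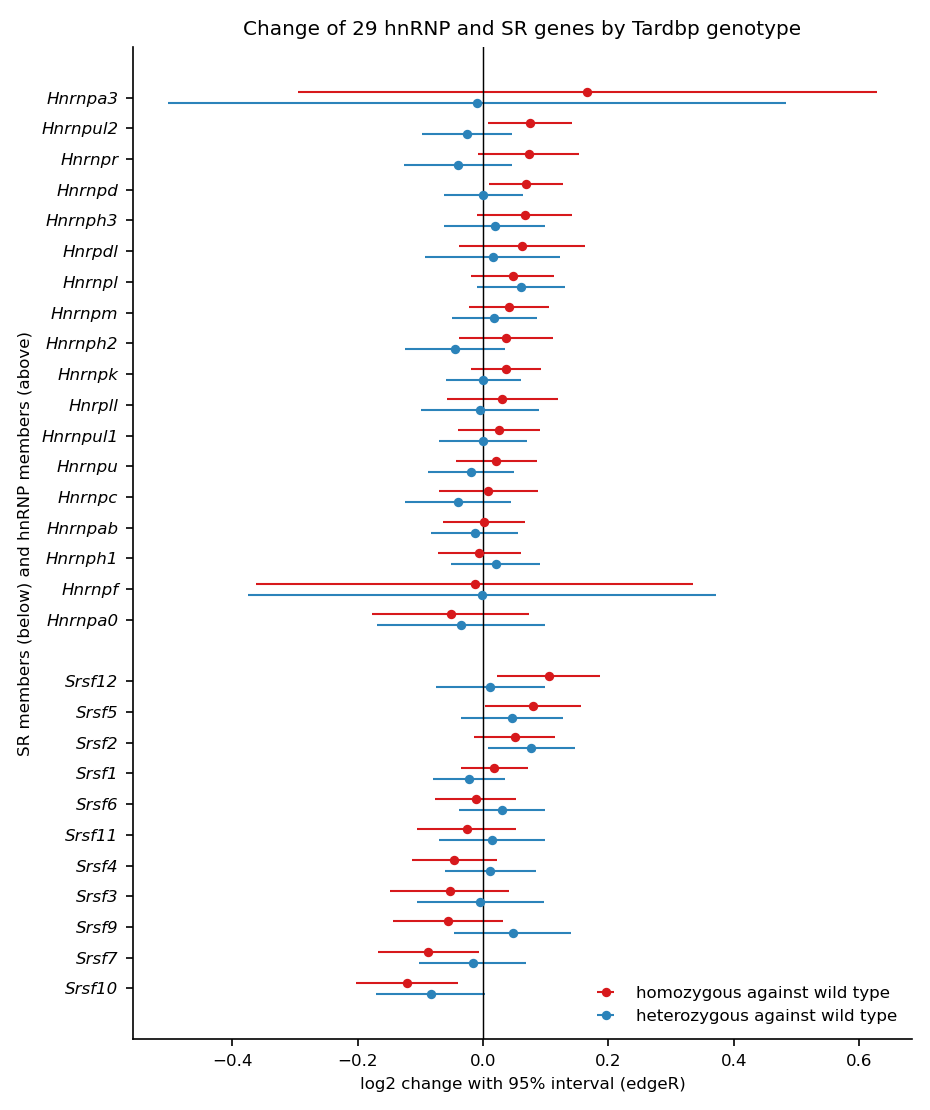
The log2 change of each member with its 95% interval from edgeR, homozygous (red) and heterozygous (blue) against wild type, with the 11 SR members below and the 18 hnRNP members above. Most homozygous estimates of hnRNP members lie right of 0, no interval belongs to a call, and Hnrnpa3 and Hnrnpf have by far the widest intervals.

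Among the SR genes, Srsf10 (chr4:135855747-135869908) had the smallest p of all members. It encodes a splicing regulator that represses splicing when dephosphorylated, as in heat shock. Its wild-type libraries had 71.5, 74.5 and 82.8 CPM as lowest, median and highest value, the heterozygous ones 68.9, 71.5 and 75.9 and the homozygous ones 64.8, 70.1 and 75.8. The groups overlapped, with 4 of 8 homozygous libraries below the lowest wild-type one. The estimate was -0.12 ± 0.04 (log2, SE; edgeR adjusted p = 0.117; exact permutation test, two-sided, p = 0.026) in homozygotes and -0.08 ± 0.04 (edgeR adjusted p = 0.9996; exact permutation p = 0.058) in heterozygotes.

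Srsf7, at chr17:80200089-80207305, encodes an SR protein with a zinc knuckle that also acts in mRNA export. It had 61.4, 67.6 and 71.3 CPM in wild type and 58.0, 62.8 and 67.9 CPM in homozygotes. The ranges overlapped, with 2 homozygous libraries below the lowest wild-type one, and the estimate was -0.09 ± 0.04 (log2, SE; edgeR adjusted p = 0.266; exact permutation p = 0.067). Srsf4 and Srsf9 had the next smallest p among negative estimates, at -0.05 ± 0.03 (edgeR adjusted p = 0.527; exact permutation p = 0.176) and -0.06 ± 0.04 (edgeR adjusted p = 0.561; exact permutation p = 0.163).

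SR genes with positive estimates were led by Srsf12 and Srsf5. Srsf12, at chr4:33208991-33233340, encodes an SR protein related to Srsf10 and had 19.7, 21.9 and 23.0 CPM in wild type and 21.5, 22.7 and 25.1 CPM in homozygotes. Of the 8 homozygous libraries 7 lay above the wild-type median and 3 above the highest wild-type library, and the estimate was 0.10 ± 0.04 (log2, SE; edgeR adjusted p = 0.186; exact permutation p = 0.027). Srsf5, at chr12:80945504-80950507, had 318.1, 335.6 and 370.9 CPM in wild type and 343.7, 356.4 and 389.4 CPM in homozygotes. All 8 homozygous libraries lay above the wild-type median while the ranges overlapped, and the estimate was 0.08 ± 0.04 (log2, SE; edgeR adjusted p = 0.284; exact permutation p = 0.061).

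**Figure D2:**
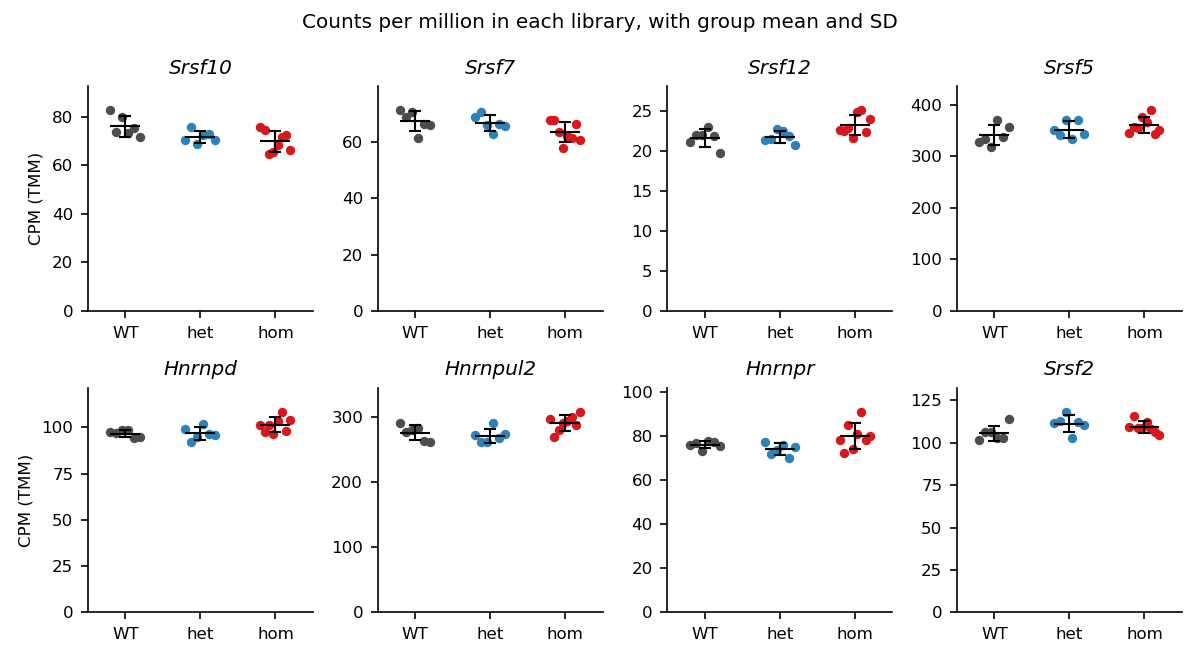
CPM in each library (points; y axes start at 0) for 8 members by genotype, with the group mean and SD in black (6 wild-type, 6 heterozygous and 8 homozygous libraries). The groups overlap in every panel.

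Among the hnRNP genes, Hnrnpd (chr5:99958426-99978938) and Hnrnpul2 (chr19:8819401-8834142) had the smallest p. Hnrnpd encodes AUF1, which binds AU-rich elements and governs mRNA decay, and it had 94.3, 97.2 and 98.5 CPM in wild type and 96.5, 101.4 and 108.5 CPM in homozygotes. With 5 of 8 homozygous libraries above the highest wild-type one, its estimate was 0.07 ± 0.03 (log2, SE; edgeR adjusted p = 0.232; exact permutation p = 0.018). Hnrnpul2, a relative of the nuclear scaffold protein hnRNP U, had 261.5, 278.5 and 290.9 CPM in wild type and 269.1, 292.1 and 307.8 CPM in homozygotes. Here too 5 homozygous libraries lay above all wild-type ones, and the estimate was 0.08 ± 0.03 (log2, SE; edgeR adjusted p = 0.247; exact permutation p = 0.045). Reads of genes that overlap a member could be counted to either, since the labels do not say whether counting used the strand: an exon of Gm17092 overlaps Hnrnpd on the other strand and one of AC129217.1 overlaps Hnrnpul2 on the same strand.

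Between heterozygotes and wild type no member was called (0% of all genes were), and 1 member had an unadjusted p under 0.05, against 3.19% of all genes. This was Srsf2, the gene of an SR protein that acts at exonic enhancers and in transcription elongation, at chr11:116849901-116853094. It had 101.4, 104.5 and 113.8 CPM in wild type, 102.7, 111.9 and 118.4 CPM in heterozygotes and 104.9, 108.7 and 115.6 CPM in homozygotes. The ranges overlapped, and the heterozygous estimate was 0.08 ± 0.03 (log2, SE; edgeR adjusted p = 0.9996; exact permutation p = 0.069). Exons of Mettl23 and Mfsd11 overlap Srsf2 on the other strand. The other members named by the rule were Srsf10, above, Hnrnpl (a CA-repeat-binding splicing regulator) at 0.06 ± 0.03 (exact permutation p = 0.110) and Hnrnph2 (a G-run-binding protein) at -0.04 ± 0.04 (exact permutation p = 0.264), both with edgeR adjusted p = 0.9996. The median over members was -0.0002, against 0.0017 over all genes.

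Between homozygotes and heterozygotes no member was called, where 0.108% of genes were, and 6 members had an unadjusted p under 0.05, against 11% of all genes. Hnrnpul2 was estimated 0.10 ± 0.03 higher (log2, SE; edgeR adjusted p = 0.284; exact permutation p = 0.012). Hnrnpr, at chr4:136310942-136340681, encodes an RNA-binding protein that associates with axonal mRNA in motor neurons. Its wild-type libraries had 73.0, 76.4 and 77.7 CPM, the heterozygous ones 70.0, 74.3 and 77.4 and the homozygous ones 72.4, 79.2 and 91.0. The homozygous libraries were spread the most, with homozygous library 6 the highest and 6 of 8 above the highest heterozygous one, and the estimate was 0.11 ± 0.04 (edgeR adjusted p = 0.310; exact permutation p = 0.031). Hnrnpd, Srsf12 and Hnrnph2 also had an unadjusted p under 0.05, with estimates of 0.07, 0.09 and 0.08. Srsf9 was estimated at -0.10 ± 0.04 (edgeR adjusted p = 0.395; exact permutation p = 0.038) and Srsf7 at -0.07 ± 0.04 (edgeR adjusted p = 0.508; exact permutation p = 0.088). The comparisons with wild type and heterozygotes share the homozygous libraries.

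Against the midpoint of the other genotypes, heterozygotes gave no call among members, where 0% of all genes passed, and 2 members had an unadjusted p under 0.05, against 3.43% of genes. Hnrnpul2 was estimated at -0.06 ± 0.03 and Hnrnpr at -0.08 ± 0.04 (log2, SE; edgeR adjusted p = 0.994 for both). For a trend per Q331K allele no member was called, where 1.83% of genes were, and the smallest adjusted p was that of Srsf10, at 0.108, with an estimate of -0.06 ± 0.02 per allele. Srsf10, Srsf12, Hnrnpd, Hnrnpul2, Srsf7 and Srsf5, 6 members, had an unadjusted p under 0.05 for the trend, against 16.8% of genes.

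Other genes of these pathways gave no call between homozygotes and wild type either. Of 18 further hnRNP proteins 13 had positive and 5 negative estimates (median 0.02), and the smallest p in each direction belonged to Rbmx, which encodes hnRNP G, at 0.06 ± 0.03 (edgeR adjusted p = 0.231) and Pcbp1, a poly(C)-binding protein, at -0.05 ± 0.03 (adjusted p = 0.438). Of 26 tested SR kinases, importers and SR-related proteins 13 estimates were positive and 13 negative (median 0.0030), led by Srrm1, a splicing coactivator, at 0.09 ± 0.04 (adjusted p = 0.302) and Srrm3, a regulator of neuronal microexons, at -0.11 ± 0.05 (adjusted p = 0.255). Of 12 tested genes of nonsense-mediated decay 5 were positive and 7 negative (median -0.01), with the helicase gene Upf1 at -0.09 ± 0.04 (adjusted p = 0.248) and Upf3a at 0.05 ± 0.03 (adjusted p = 0.495).

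Levels per kb of exon ran from 88.2 ± 4.54 CPM per kb (SD over 20 libraries) for Srsf5 to 3.47 ± 0.21 for Hnrnpr. Srsf5 encodes an SR protein that promotes inclusion of weak exons, and its level stood apart from the next, Hnrnph1 at 46.3 ± 1.83 CPM per kb. By this length, the union of exons, each neighbour from Hnrnph1 down to Srsf2 at 36.8 ± 1.58 CPM per kb differed by less than the spread between libraries. Hnrnph1, Hnrnpk (a poly(C)-binding protein) at 45.9 ± 1.42 and Hnrpdl at 43.7 ± 2.99 were the highest hnRNP genes. Among SR genes Srsf5, Srsf2 and Srsf1 (28.8 ± 0.86 CPM per kb) were highest by this length. The lowest were Srsf12 at 7.08, Hnrpll at 3.88 and Hnrnpr at 3.47 CPM per kb. The length used matters here. Per kb of the basic coding transcripts' exons Hnrpll stood at 14.5 and Srsf3 at 38.7 instead of 12.8 CPM per kb. Srsf11 (59.7), Srsf3 and Srsf6 (29.8) came above Srsf1 (29.6), with Srsf11 also above Srsf2 (54.3). The run from Hnrnph1 to Srsf2 was not close by that length, with Hnrnph1 at 107.7, Hnrpdl at 76.4, Hnrnph2 at 42.5 and Hnrnpc at 40.4. Srsf5 remained highest and Hnrnpr lowest, but Hnrnpr is long by both lengths (22199 and 21483 bases), so they are not separate checks. By CPM alone Hnrnpr, at 77.0, was above Srsf9 and Srsf12, the lowest members. Genes on the opposite strand overlap exons of Hnrnpk (Rmi1), Hnrnph3 (Rufy2), Hnrnpab (Phykpl), Hnrnpl (Gm44702), Srsf1 (Gm11508), Srsf4 (Gm12992) and Hnrnpf. On the same strand March2 overlaps Hnrnpm and Gm24574 overlaps Hnrnpa3.

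The spread between libraries set Hnrnpa3 and Hnrnpf apart, an observation made after their values were seen. The biological coefficient of variation, the spread beyond counting error, was 27.8% for Hnrnpa3 and 21.1% for Hnrnpf, and 4.05% to 7.86% for the other 27 members (median 5.22%). Genes of at least 5 in average log2 CPM had a median of 5.11%. By the ratio of its variation to the fitted trend Hnrnpa3 ranked 9 and Hnrnpf 21 among these 6032 genes. Below the trend lay 24 of the 29 members, as did 77.7% of those genes. The highest of the other members was Hnrnpa0, which encodes an AU-rich-element-binding protein, at 7.86%.

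**Figure D3:**
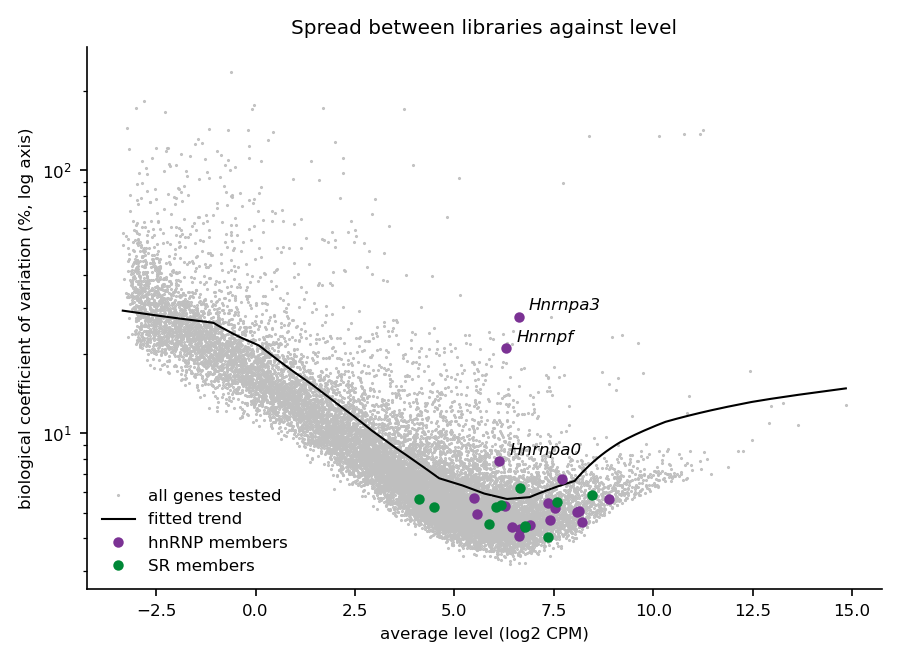
Biological coefficient of variation (log axis, percent) against average log2 CPM for all genes tested (grey), the fitted trend (line) and hnRNP (purple) and SR (green) members. Hnrnpa3 and Hnrnpf lie far above the trend, and 24 of the 29 members lie below it.

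Hnrnpa3 encodes a relative of hnRNP A1 that binds mRNA and telomeric repeats. It had 72.2, 81.1 and 144.8 CPM in wild type, 69.2, 84.9 and 140.3 in heterozygotes and 71.7, 93.5 and 148.2 in homozygotes, so each genotype held low and high libraries. It was over 100 CPM in 7 libraries, wild-type 1 and 2, heterozygous 5 and 6 and homozygous 4, 7 and 8, with the lowest of them at 105.0 CPM and the next library down at 97.0. The homozygous estimate was 0.17 ± 0.22 (log2, SE; edgeR adjusted p = 0.766; 95% interval -0.29 to 0.63), and it ran from -0.019 to 0.46 over the alternatives, with a change of sign in 1 of them.

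Hnrnpf encodes a G-run-binding regulator of alternative splicing and had 55.3, 82.1 and 95.9 CPM in wild type, 51.9, 84.6 and 93.5 in heterozygotes and 59.2, 76.9 and 97.1 in homozygotes. It was over 80 CPM in 10 libraries, 5 of the 7 with Hnrnpa3 over 100 CPM and 5 of the other 13, limits set after seeing the values. Wild-type library 1 was high in Hnrnpa3 and low in Hnrnpf (61.4 CPM), and homozygous library 5 the reverse (71.7 and 97.1 CPM). The homozygous estimate was -0.01 ± 0.17 (log2, SE; edgeR adjusted p = 0.980).

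Near-identical copies, at least 95% identical over at least 200 bases, were annotated for 9 members: 27 for Hnrnpa3, 8 for Hnrnpf and at most 4 for each of 7 others, with none for 20. Members with 1 to 4 copies had a coefficient of variation of 4.59% to 6.19% and those with none 4.05% to 7.86%. Gm5641, the copy of Hnrnpa3 that is 100% identical over 1458 bases, had 560 to 1084 counts in 4 libraries (wild-type 1 and 2, homozygous 7 and 8) and 34 to 105 in the other 16. Those 4 libraries were among the 7 of over 100 CPM in Hnrnpa3, at 107.6 to 148.2 CPM. Gm6793 had 1074 to 2009 counts in every library, up to 21.5% of its sum with Hnrnpa3, and Gm6430 had 6 to 26 counts beside Hnrnpf. Gm7964, a copy of Hnrnpk, had 827 to 1685 counts, and Gm9761, a copy of Srsf3, had 197 to 366. The labels do not say how reads of shared sequence were assigned. The levels of members with copies, Hnrnpa3, Hnrnpf, Hnrnpk and Srsf3 among them, are therefore uncertain, and the copies' part in the spread was not tested. Without the 4 libraries of high Gm5641, a choice made after seeing the data, the Hnrnpa3 estimate was 0.27 for heterozygotes against wild type and -0.03 for homozygotes against heterozygotes. This left out the highest Hnrnpa3 libraries of wild type (144.8 and 107.6 CPM) and of homozygotes (148.2 and 144.7 CPM). Heterozygous libraries 5 and 6 (140.3 and 105.0 CPM) stayed, so the direction of both changes was set by the choice.

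**Figure D4:**
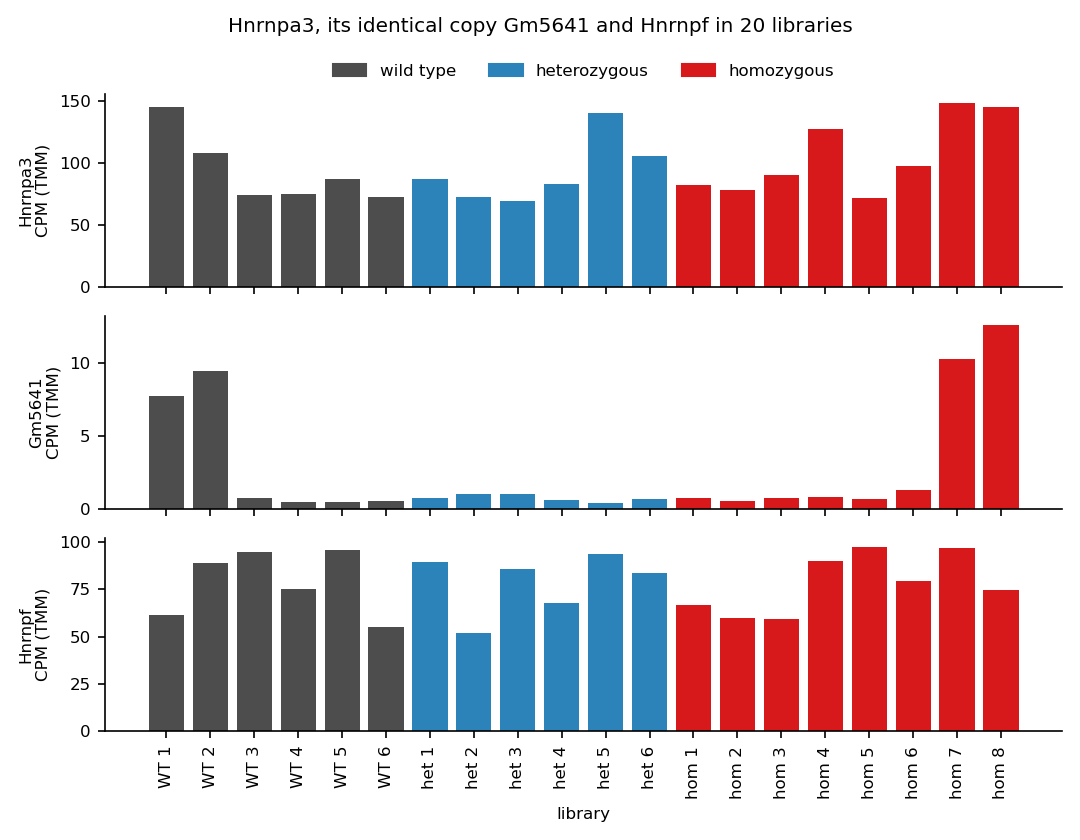
CPM of Hnrnpa3 (top), its copy Gm5641 (middle) and Hnrnpf (bottom) in each of 20 libraries, coloured by genotype, with bars from 0. Gm5641 stands out in wild-type libraries 1 and 2 and homozygous libraries 7 and 8. Hnrnpf is over 80 CPM in 5 of the 7 libraries with Hnrnpa3 over 100 CPM and in 5 of the other 13, limits set after seeing the values.

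Members also varied together between libraries, as a description made after seeing the data. The first principal component of the standardised log2 CPM of the 29 members held 28.0% of their variance and the second 19.2%. No share for other genes is set beside these, so the axis is not shown to be particular to these families. The weights were negative for 8 of 11 SR genes, led by Srsf7, Srsf9 and Srsf6, and positive for 14 of 18 hnRNP genes, led by Hnrnph2, Hnrnpr and Hnrnpd. Heterozygous library 2 had the lowest score (-6.35) and homozygous library 6 the highest (5.74). Scores ran from -3.12 to 2.53 in wild type (median -1.46), -6.35 to 0.96 in heterozygotes (median -1.04) and -3.17 to 5.74 in homozygotes (median 2.54), and all 3 ranges overlapped. Heterozygous library 2 and homozygous libraries 1, 2 and 4 were the 4 with an ependymal score over 0.5; their part in this axis was not tested.

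**Figure D5:**
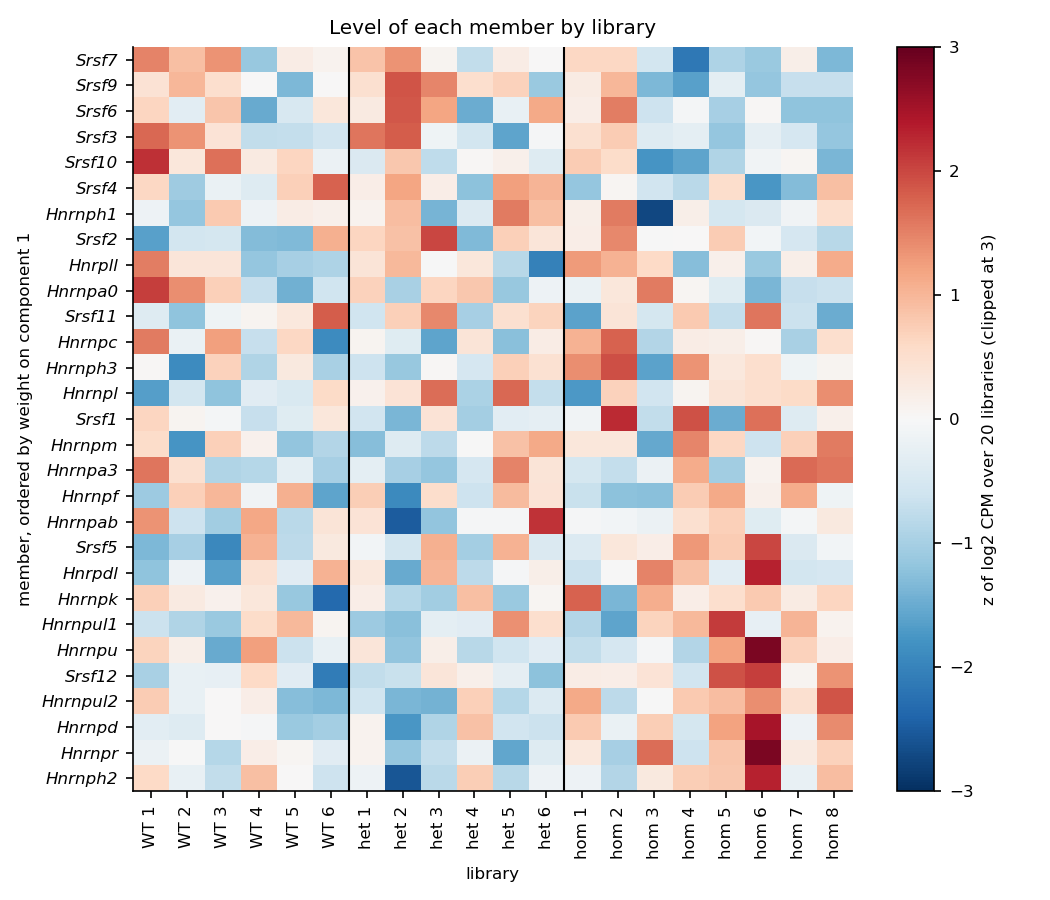
Log2 CPM of each member in each library as a z score over the 20 libraries (red high, blue low), members ordered by weight on the first component and libraries by genotype. SR genes gather at the top and most hnRNP genes below, and homozygous library 6 and heterozygous library 2 stand at opposite ends of the component.

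The members' promoters were read for sequence features that the name rule did not use. Of the 29, 27 matched a RefSeq promoter window (GRCm38), of which the 250 bases before the start were read, and the ratio of observed to expected CpG was over 0.6 in 26, against 34.2% of the 32536 windows in the table. Hnrnpf was the exception, at 0.378, and the median was 0.979 for members and 0.378 for all windows. The windows in the table were not limited to genes expressed here. Whether these features set the members apart from other expressed genes was therefore not tested. Each member's window was that nearest the gene start given with the counts, up to 2349 bases away (Hnrnpl). A CCAAT box (CCAAT, either strand) was in 13 of 27 windows against 33.8% of all, an ETS site (CCGGAAG) in 6 against 6.95%, a TATA box (TATAAA) in 3 against 12.3%, the NRF1 core (GCGCATGC) in 1 against 2.27% and the cAMP response element (TGACGTCA) in 0 against 1.56%. These motifs were chosen after seeing the data, no motif contains another, and a match is only a description of the letters.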

How the data were processed

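Counts per gene were analysed from 20 frontal cortex libraries (6 wild type, 6 heterozygous, 8 homozygous), grouped by the labels. The authors deposited raw counts in 1 table; HISAT2 2.0.5, Trim Galore 0.4.3 and the build GRCm38 are named in the submitters' processing notes, while the program that counted reads, and whether it used strand, is not given in the sources used here. Rows without a gene identifier (56) held at most 0.0835% of a library's counts and were kept, as were 124 rows sharing a name.

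The members and gene lists were chosen with earlier results of these data known. All 20 libraries entered 1 edgeR 4.0.16 quasi-likelihood fit (R 4.3.3, TMM, filterByExpr, robust; 16690 genes), with Benjamini-Hochberg adjustment over all genes and a threshold of 0.05; CPM are TMM-scaled. Single members were also tested by exact permutation over 3003 (homozygous) or 924 (heterozygous) splits against wild type. The same test, over all splits, was run between homozygotes and heterozygotes. Named members were the smallest p in each direction and comparison, the highest and lowest levels per kb and the lowest CPM. Copies were sought with BLAST 2.17.0 among GENCODE M21 transcripts, and lengths are unions of exons; the copy search and its limits were chosen after seeing the values. The fit was tested on simulated counts. Alternatives used DESeq2 1.42.0, limma 3.58.1, sva 3.50.0, other filters, covariates and left-out libraries.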

Additional observations from a re-analysis of the deposited data

How the results depend on the processing

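No member was called in any of the 5 comparisons under any of 32 alternatives, 20 of which left out 1 library each; the smallest adjusted p in any was 0.0587, for Srsf10 without the libraries of ependymal score over 0.5. The median member log2 change moved by less than the spread between replicates in every alternative run. That spread (SD 0.024) was nearly as large as the median of 0.026 for homozygotes against wild type, so this does not show that the median is stable. Leaving out 1 library gave medians of 0.016 to 0.034 for homozygotes against wild type, -0.014 to 0.011 for heterozygotes against wild type and 0.018 to 0.035 for homozygotes against heterozygotes. Among 22 values of named members, 682 of 702 alternative values kept their sign and their side of the threshold, and the other 20 changed sign, all of them of Hnrnpa3 or Hnrnpf; the cause was not tested.

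For heterozygotes against wild type, the Hnrnpa3 estimate of -0.0094 became 0.066 with 3 surrogate variables, 0.059 with the ependymal, olfactory and meningeal scores as covariates, 0.049 without the libraries of ependymal score over 0.5, 0.27 without the libraries of high Gm5641 and between -0.17 and 0.16 leaving out 1 library each. For homozygotes against heterozygotes it became -0.030 without the libraries of high Gm5641. Leaving those libraries out removed the highest Hnrnpa3 values of wild type and homozygotes, so the direction of both these changes was set by the choice. The Hnrnpf estimate for homozygotes became 0.051 without the libraries of ependymal score over 0.5 and ran from -0.095 to 0.051 leaving out 1 library each.

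The labels give genotypes the same replicate numbers without saying what the numbers mean. Of 18 same-numbered pairs 1 had a correlation of deviations over 0.1 (median 0.04). A differently numbered pair, wild-type 3 and homozygous 1, had 0.24. Such a correlation cannot show whether same-numbered samples shared a litter or batch. With the replicate block, 0 members were called in every comparison, the median for homozygotes against wild type was 0.020, and the Hnrnpa3 estimate was -0.019 for homozygotes against wild type and -0.0080 for homozygotes against heterozygotes.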
